A study of Mus musculus with 8 samples.

Results

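The genes described here encode the nuclear-encoded subunits of oxidative phosphorylation. They were chosen by symbol alone, from the names *Nduf* (classes a, b, c, s and v with a number, and *Ndufab1*), *Sdha* to *Sdhd*, *Uqcr*, *Cyc1*, *Cox4* to *Cox8* and *Atp5*, and symbols marked as pseudogenes or retrogenes were left out. The choice gave 86 of the 55523 entries of the count table, 37 for complex I, 4 for complex II, 9 for complex III, 19 for complex IV and 17 for complex V. EGFP-positive cells had been sorted from the pituitary of Ad4BP-BAC-EGFP mice. In these mice a bacterial artificial chromosome carrying the gene of NR5A1 (also named Ad4BP) drives EGFP, and all samples share the transgene. RNA of 4 female and 4 male samples was sequenced after low-input library construction, and the ages of the mice are not given in the sources used here. The samples carry separate labels, but nothing states that each came from a separate animal, so the p-values measure the spread between samples. Samples are named by sex and replicate number (male 1, female 2). Male 1 is given apart throughout, because the study left this library out of its own analysis of gonadotropes.

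Oxidative phosphorylation takes place in the inner mitochondrial membrane. Complexes I (NADH dehydrogenase) and II (succinate dehydrogenase) pass electrons through complex III (cytochrome bc1) and cytochrome c to complex IV (cytochrome c oxidase), and complex V (ATP synthase) uses the proton gradient so formed to make ATP. Most subunits are encoded in the nucleus and imported, whereas a small set, at the core of complexes I, III, IV and V, is encoded by mitochondrial DNA. Nuclear respiratory factor 1 (NRF1), GABPA and the coactivator PGC-1α (*Ppargc1a*) are known regulators of the nuclear genes. A symbol is not always a role. *Ndufa4* was named as a complex I subunit but is found with complex IV, *Cox7a2l* encodes a factor that joins complexes III and IV, *Atp5s* encodes a factor of ATP synthase called factor B, and *Atp5f1* in this table is the gene of subunit b.

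The total count was between 18774578 and 31302588 per library. Values are CPM, counts scaled by library size after correction with edgeR's trimmed mean of M values (TMM) over the 8 libraries. The scaling factors were 1.04 to 1.11 in females, 0.880 to 0.933 in males 2 to 4 and 1.0 in male 1. A limit of 3 counts corresponded to 0.0918 to 0.147 CPM, and it covers counting error only because no molecular identifiers are described and amplified reads are not independent molecules. The gonadotrope markers *Lhb*, *Fshb*, *Cga*, *Gnrhr* and *Nr5a1* summed to between 21524 and 34768 CPM in females, 28589 CPM in male 1 and between 67410 and 76468 CPM in males 2 to 4. On average *Cga* held 18075 CPM of this sum in females and 34226 CPM in males 2 to 4, and *Fshb* 2910 and 25924 CPM. *Fshb* itself had a log2 fold change of 3.13 ± 0.56 (SE, edgeR, adjusted p = 0.0449). *Nr5a1*, the gene behind the EGFP gate, was at 864 to 1263 CPM in females and 590 to 795 CPM in males 2 to 4 but at 16.4 CPM in male 1. The somatotrope markers *Gh* and *Ghrhr* summed to between 12418 and 58215 CPM, 30328 CPM and between 64420 and 143715 CPM in the same order. *Pomc*, of corticotropes and melanotropes, was at 12384 to 22159 CPM, 18839 CPM and 10062 to 28863 CPM. *Prl*, of lactotropes, was at 4679 to 18234 CPM, 1631 CPM and 6180 to 15837 CPM. Hormone genes of other cell types were thus abundant in the sorted cells. *Gh*, *Pomc* and *Prl* had log2 fold changes of 1.14 ± 0.53, 0.12 ± 0.38 and 0.26 ± 0.53 between the sexes (SE, edgeR, adjusted p of 0.289 or more). *Tshb*, of thyrotropes, was at 20.9 to 83.2 CPM in females, 83.2 CPM in male 1 and 234 to 335 CPM in males 2 to 4. Its log2 fold change was 2.35 ± 0.46 (SE, edgeR, adjusted p = 0.0525). None of the markers named here was at 0 in all libraries, and their part in the values below was not tested. *Malat1*, a nuclear RNA, took 11.1% of the counts of male 1 and between 0.706% and 1.59% of those of the other 7 libraries. In bulk samples of this kind fewer cells of a type and less RNA per cell cannot be told apart.

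The promoters of the members are shown first, because the NRF1 and YY1 motifs were more frequent in them than in promoters at large. RefSeq promoter windows (GRCm38.p6, 250 bases before to 50 bases after a start, 300 bases in all) matched 69 members by symbol or, where that was absent, by a synonym. They gave 74 windows, since some members have more than 1 start. The NRF1 motif, read as GCGCA and GCGC with any 1 base between them and searched on both strands as the others were, was present in 18 of the 74 windows, or 24.3%. It was present in 4.6% of all 32851 windows and in 8.35% of the windows of genes tested between the sexes. The YY1 motif AANATGGCG was present in 13.5% of the members' windows and 2.38% of all windows, and in 4.12% of those of tested genes. The ETS motif CCGGAAGT, the kind of site GABPA binds, was present in 6.76% of the members' windows, against 3.89% of all windows and 6.86% of those of tested genes. TATAAA was present in 10.8% of the members' windows, 13.6% of all windows and 7.87% of those of tested genes. CCAAT stood in 41.9%, 37.4% and 36.9% of the same 3 sets of windows. The searched motifs can overlap one another, and a match of letters is a description of a window, not a binding site. The following stretches of 80 bases, each lying before a RefSeq start of its gene, were chosen to show the NRF1 motif in members of complexes I, II and IV whose levels are described in the text. They are printed 5′ to 3′ on the strand of the gene, with the motif in capitals.
Sdha: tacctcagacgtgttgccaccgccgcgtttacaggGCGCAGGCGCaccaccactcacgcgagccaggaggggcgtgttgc
Sdhd: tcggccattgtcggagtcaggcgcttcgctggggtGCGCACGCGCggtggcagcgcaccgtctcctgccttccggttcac
Cox6a1: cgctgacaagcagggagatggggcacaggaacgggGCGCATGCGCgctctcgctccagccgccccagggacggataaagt
Ndufa5: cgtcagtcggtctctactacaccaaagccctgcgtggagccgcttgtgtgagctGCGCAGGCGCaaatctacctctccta

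All 4 stretches lie on the reverse strand, at chr13:74350294-74350373 (*Sdha*), chr9:50603884-50603963 (*Sdhd*), chr5:115349076-115349155 (*Cox6a1*) and chr6:24527691-24527770 (*Ndufa5*). The motif began 98 bases before the start of *Sdha*, 79 before that of *Sdhd* and 162 before that of *Cox6a1*. *Ndufa5* has a pair of RefSeq starts that share the same match, and the motif began 26 bases before the one shown and 190 bases before the other. The gene as annotated by GENCODE reaches farther upstream, to base 24528013, so this stretch lies within it. The windows of *Sdha* and *Cox6a1* held 3 and 2 matches of the NRF1 motif. In the libraries *Sdha* and *Cox6a1* were even and abundant, whereas *Ndufa5* was found at either of 2 levels, as described with the single-library low values.

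The members as a group were well expressed. Of the 86 genes, 84 had a count in at least 1 library, 80 had at least 3 counts in each of the 8 libraries, and 77 had a median of at least 10 CPM over the 7 libraries other than male 1. The median was at least 100 CPM for 33 members. Together the members took between 0.846% and 1.02% of the counts of the female libraries and between 0.696% and 0.783% of those of the males. They lie on 19 chromosomes, with 3 of them (*Ndufa1*, *Ndufb11* and *Cox7b*) on the X chromosome. Near-identical copies of the transcript, with at least 90% identity over at least 50% of its length, were annotated elsewhere for 17 members. *Atp5l*, a small subunit of the membrane part of ATP synthase, had the most, with 13 copies, and counts of such members are uncertain because reads can be split among the copies.

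Levels of different genes were compared per kb of transcript, with the median length of the annotated protein-coding transcripts. Of the 85 members that had a length, the 81 tested between the sexes were used. Among these the median level over libraries was highest in complex III, at 201 CPM per kb for the median member. Complex IV followed at 115, complex I at 96.6, complex II at 81.6 and complex V at 63.4 CPM per kb. In complex IV only 14 of the 18 members with a length were tested. *Cox6a2*, *Cox7b2*, *Cox8b* and *Cox8c*, with a median of 0 CPM, were left out, so its place holds for tested members only. The ranges within complexes were wider than the differences between them, for example from 12.5 to 569 CPM per kb in complex I and from 15.9 to 574 CPM per kb in complex III. The most abundant members per kb were *Cox8a* (663 CPM per kb), *Uqcr10* (574), *Ndufa6* (569), *Uqcrq* (558) and *Cox6a1* (501), all of them small accessory subunits. In complex II the flavoprotein *Sdha*, which oxidizes succinate, stood at 206, 243, 249 and 214 CPM in females 1 to 4, at 242, 275 and 243 CPM in males 2 to 4 and at 182 CPM in male 1.

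Complex IV is the complex in which subunits have paralogues known from other tissues, and one form held most of the counts of each such subunit over the libraries together. *Cox4i1*, the common form of subunit 4, had a level of 404 CPM per kb, 143-fold that of *Cox4i2*, the form known from lung and from low oxygen, at 2.83 CPM per kb. *Cox4i2* was nevertheless counted in all 8 libraries, with 465 counts in total and at most 94 in 1 library. *Cox6b1*, which joins the monomers of the oxidase, stood at 167 CPM per kb, 72.0-fold above *Cox6b2*, the form known from testis, at 2.32 CPM per kb. Male 3 was an exception, with 5 counts of *Cox6b1* and 15 of *Cox6b2*. *Cox7a2* stood at 122 CPM per kb and *Cox7a1*, the form known from heart and skeletal muscle, had 84 counts in all, in 4 of the 8 libraries. The muscle form *Cox6a2* and the testis form *Cox8c* had 0 counts in the 8 libraries, which allows at most 0.147 CPM in any of them. *Cox8b* had 60 counts, 29 in female 4 and 31 in male 1, and *Cox7b2* had 36 counts, 16 in male 3 and 20 in male 4. *Cox6a1*, the form of subunit 6a found in most tissues, was at 286, 275, 248 and 269 CPM in females, at 306, 323 and 325 CPM in males 2 to 4 and at 265 CPM in male 1. The values of males 2 to 4 lay above the female values, and that of male 1 lay among them.

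**Figure D1:**
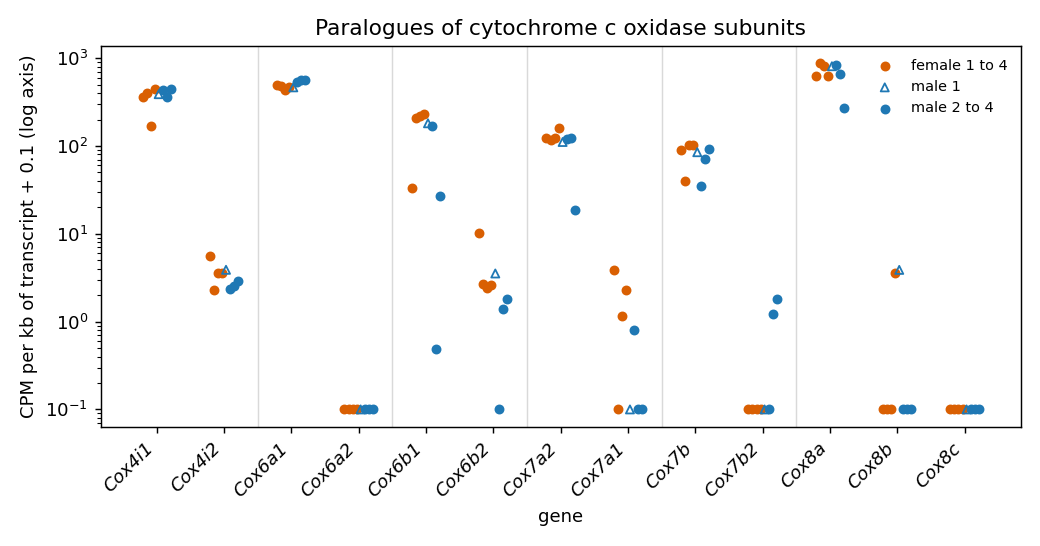
CPM per kb of transcript plus 0.1, on a log axis, for subunits of cytochrome c oxidase and their paralogues, each point 1 library (orange, 4 females; blue circles, males 2 to 4; open triangle, male 1). *Cox4i1* stands 143-fold above *Cox4i2*, and *Cox6a2* and *Cox8c* lie at 0 in the 8 libraries. The points of *Cox6b1* in female 1, male 3 and male 4 and that of *Cox7a2* in male 4 lie far below the others of the same gene.

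The c subunit of ATP synthase, which forms the rotating ring, is encoded by 3 genes with the same mature protein. *Atp5g3* had the steadiest counts in females, with 98.0, 91.7, 92.6 and 114 CPM, followed by 81.7, 87.0 and 39.2 CPM in males 2 to 4 and 90.1 CPM in male 1. *Atp5g1* lay between 19.4 and 106 CPM in the 8 libraries and *Atp5g2* between 0.917 and 18.4 CPM. Both spanned more than 5 times among the females alone, and *Atp5g2* had 2 near-identical copies.

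The summed level of the members did not separate the sexes. The sum over the 86 members was 7592, 8113, 8353 and 9743 CPM in females 1 to 4 and 8345, 8399 and 7909 CPM in males 2 to 4. The female mean was 8450 ± 918 CPM (SD, n = 4) and the male mean 8218 ± 269 CPM (SD, n = 3), a ratio of 0.972, and the female range enclosed the male values. With library size alone in place of TMM the ratio was 0.828 and the ranges no longer overlapped, at 8457 to 10208 CPM in females and 6959 to 7833 CPM in males. Over all genes tested the median log2 ratio of males to females was −0.03 with TMM and −0.24 with library size alone, so the whole table shifted with this choice. By complex the male over female ratio was 0.958 for complex I, 1.11 for complex II, 1.04 for complex III, 0.932 for complex IV and 0.947 for complex V. The female and male ranges overlapped in each of the 5 complexes with TMM. With library size alone they separated for complex I (3677 to 4360 CPM in females, 2989 to 3338 CPM in males 2 to 4) and complex IV (1513 to 2081 CPM against 1357 to 1478 CPM). The ratios of complexes II and III were then 0.946 and 0.888, on the other side of 1.

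**Figure D2:**
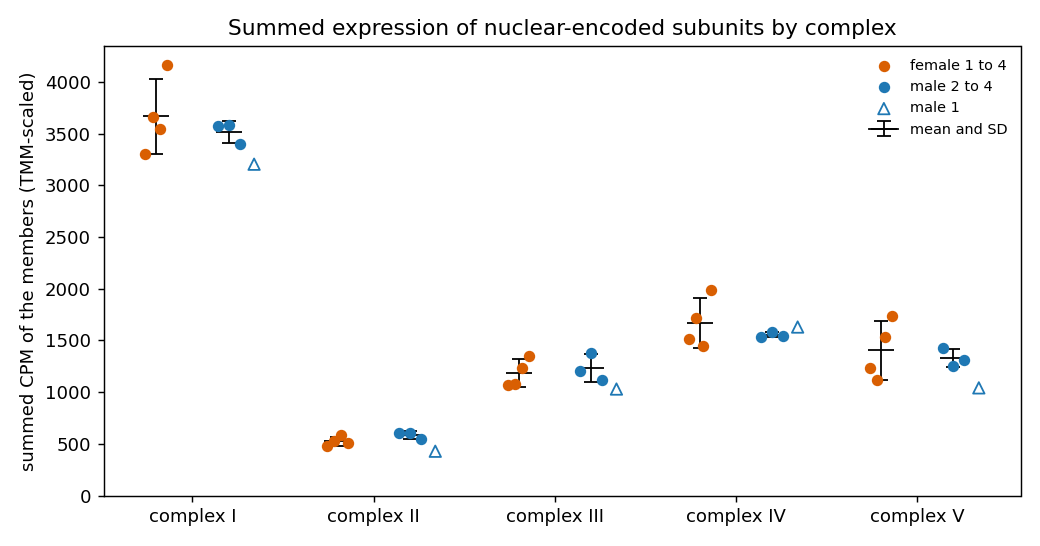
Summed CPM of the members of each complex, each point 1 library, with the mean and SD of the 4 females and of males 2 to 4 and male 1 as an open triangle that enters no mean. On this scale the female and male ranges overlap in every complex, and male 1 is below the other males in complexes I, II, III and V and above them in complex IV.

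Under these sums, single members were often far lower in 1 or a few libraries than in all others. The count was made over the 75 members whose median over 7 libraries stayed at or above 10 CPM whichever library was left out. *Ndufa5* and *Atp5h*, which were low in several libraries, did not meet this condition and are described apart. A library was counted as low for a member where its value was below 25% of the median of the other 7, a limit chosen after the values were seen. It was met by 16 of the 75 members, or 21.3%, and by 16.1% of the 9972 entries of the whole table that met the same condition, so the share among members was close to that of the table. There were 25 such low values, of which 13 were below 10% of the median. They were spread over the libraries, with 3, 3, 2 and 1 in females 1 to 4, 4 in male 1 and 4, 3 and 5 in males 2 to 4. None of the 75 exceeded 4 times the median of the others in a library, which 1.86% of the 9972 entries did. Members with a low library were 5 of 36 in complex I, 0 of 4 in complex II, 1 of 9 in complex III, 6 of 11 in complex IV and 4 of 15 in complex V. Among cytosolic ribosomal protein genes the share was 19.2% and among mitochondrial ribosomal protein genes 23.5%.

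*Cox6b1* (chr7:30616861-30626151) had the lowest value against its median. Its values were 16.0, 102, 106 and 113 CPM in females, 81.3, 0.187 and 13.1 CPM in males 2 to 4 and 88.0 CPM in male 1. The 5 counts of male 3 were 470-fold below the median of the other libraries, in a library of 28621582 counts. *Atp5d*, the δ subunit of the rotor stalk of ATP synthase, was at 159, 2.45, 150 and 215 CPM in females, 204, 142 and 232 CPM in males 2 to 4 and 156 CPM in male 1. Only female 2 was low for this gene, with 50 counts. *Ndufa4* (chr6:11900292-11907497) was at 155, 111, 110 and 153 CPM in females, 139, 3.82 and 91.5 CPM in males 2 to 4 and 88.4 CPM in male 1, so that male 3 alone was low.

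*Uqcrh*, the hinge subunit of complex III that contacts cytochrome c1, was low in 2 libraries of different sex. It was at 3.73, 113, 39.9 and 94.3 CPM in females, 119, 92.0 and 17.6 CPM in males 2 to 4 and 53.0 CPM in male 1. *Cox7a2l* was at 285, 283, 15.9 and 275 CPM in females, 19.7, 331 and 352 CPM in males 2 to 4 and 200 CPM in male 1. Female 3 and male 2 were low, and the others lay between 200 and 352 CPM. *Cox7c*, a small accessory subunit of complex IV, was at 39.4, 13.3, 181 and 274 CPM in females, 180, 14.6 and 168 CPM in males 2 to 4 and 75.1 CPM in male 1. *Atp5f1*, of the peripheral stalk, was at 149, 15.2, 234 and 205 CPM in females, 211, 153 and 173 CPM in males 2 to 4 and 14.1 CPM in male 1. *Ndufs7*, an iron-sulfur subunit of complex I, was at 52.8, 46.3, 48.1 and 57.2 CPM in females, 4.2, 37.6 and 61.0 CPM in males 2 to 4 and 49.6 CPM in male 1.

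*Ndufa5* (chr6:24518666-24528013), an accessory subunit of the arm of complex I that extends into the matrix, took 1 of 2 levels. It was at 0.685, 1.22 and 0.822 CPM in females 1, 3 and 4 and at 1.10 CPM in male 1. It was at 22.4 CPM in female 2 and at 18.3, 17.9 and 20.4 CPM in males 2 to 4, with no library in between. *Atp5h*, a peripheral stalk subunit of ATP synthase with 5 near-identical copies, was at 3.47 CPM or less in females 1 and 3 and males 1 and 3 and between 11.8 and 24.9 CPM in the other libraries.

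The 16 members with a low library and the 59 without were described by features that the counting could touch. A near-identical copy was annotated for 3 of the 16 (18.8%) and 11 of the 59 (18.6%), so 13 members with a low library had none. The median transcript length was 645 bases in the first and 838 bases in the second, and the median level was 86.2 and 90.6 CPM. Another gene overlapped 8 of the 16 and 28 of the 59, and a shared locus name was found for 1 and 4. Of the entries that share a locus with a member, 2 were counted in 1 or 2 libraries, both at loci of members without a low library. *Gm20538*, which shares the locus of *Ndufb8*, had 478 counts in male 1, 797 in male 3 and 0 in the other 6 libraries. *Gm42420*, which shares the locus of *Ndufb2*, had 373 counts in female 1 and 0 elsewhere. *Ndufb8* itself, an accessory subunit of complex I, was between 51.1 and 136 CPM in the 8 libraries. The cause of the low values was not tested.

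**Figure D3:**
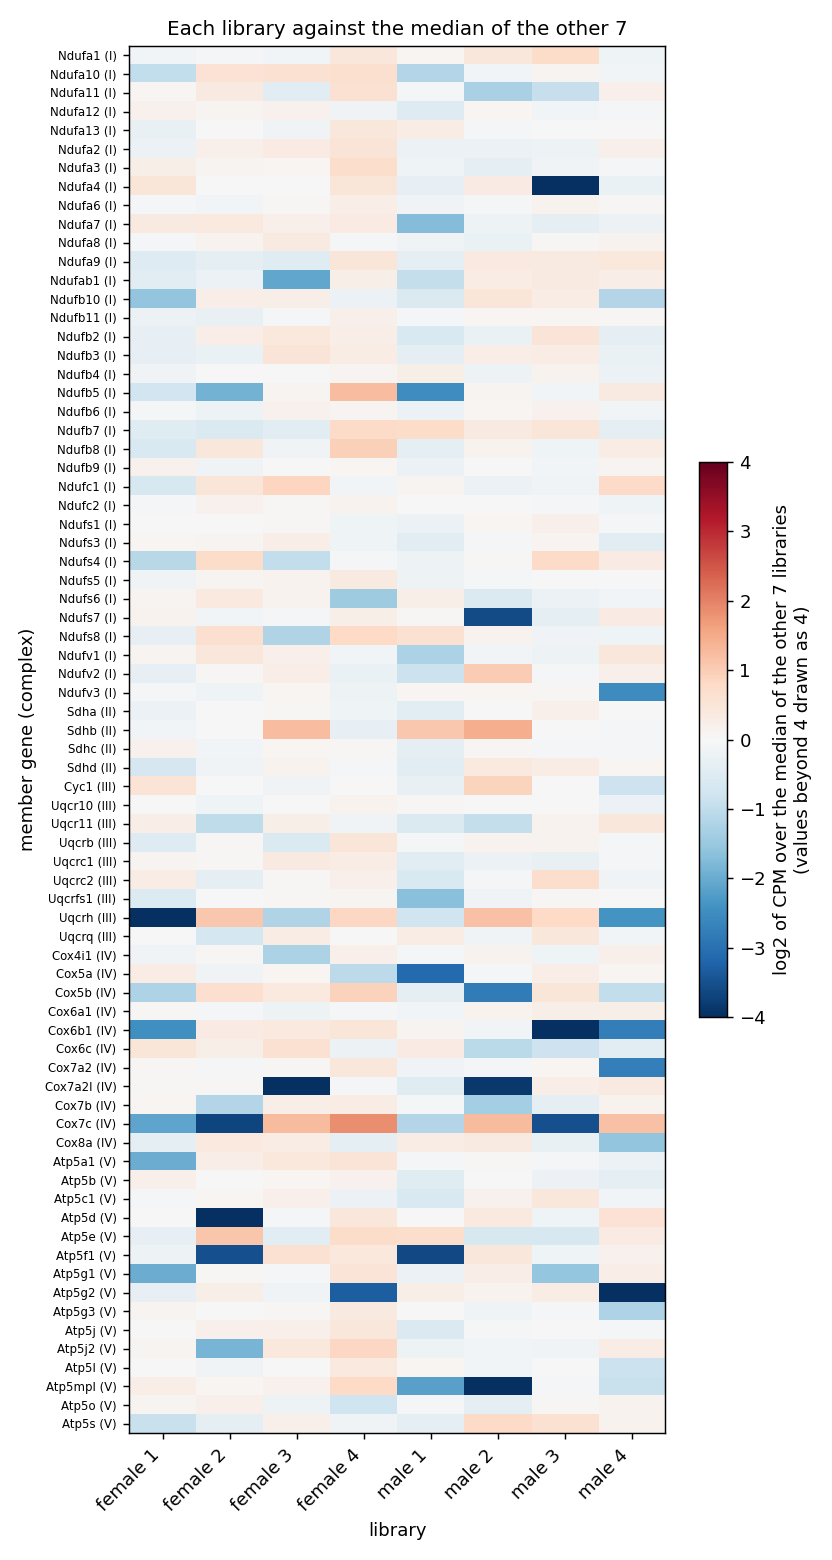
Log2 of the CPM of each library over the median of the other 7 libraries, for 74 of the 75 members whose median stayed at or above 10 CPM whichever library was left out, ordered by complex (number in brackets) and symbol; blue is lower and red higher, and values beyond 4 are drawn as 4. Dark blue cells stand singly or in small numbers within a row, in libraries of both sexes, and complex II has none.

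The spread among libraries of one sex was near that of genes at large for the members together and differed by complex. Among members with a median of at least 10 CPM the median coefficient of variation was 21.9% in females and 16.0% in males 2 to 4 (77 members), and over all 10184 tested genes of that level it was 18.5% and 14.6%. By complex, over members of the same level, the median was 17.4% in females and 10.9% in males 2 to 4 for complex I and 14.5% and 9.24% for complex II. It was 22.5% and 23.5% for complex III, 35.4% and 49.2% for complex IV (11 members) and 33.9% and 22.5% for complex V (16 members). *Ndufs1*, the largest subunit of complex I and carrier of iron-sulfur clusters, was at 40.8, 40.3, 41.9 and 36.1 CPM in females, 42.2, 46.3 and 39.2 CPM in males 2 to 4 and 35 CPM in male 1. *Ndufc2*, an accessory subunit of the membrane arm, was at 234, 268, 249 and 263 CPM in females, 242, 231 and 214 CPM in males 2 to 4 and 239 CPM in male 1.

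Within complex II 3 genes were even and one was not. *Sdhc*, one of the membrane anchors, was at 173, 147, 162 and 158 CPM in females, 160, 154 and 150 CPM in males 2 to 4 and 121 CPM in male 1. *Sdhd*, the other anchor, was at 87.3, 127, 143 and 131 CPM in females, 173, 161 and 139 CPM in males 2 to 4 and 101 CPM in male 1. *Sdhb*, the iron-sulfur subunit, was at 11.4, 12.4, 28.7 and 9.78 CPM in females, 33.8, 12.2 and 12 CPM in males 2 to 4 and 25.6 CPM in male 1. It was the lowest of the 4 genes in every library, and female 3 and males 1 and 2 stood above the rest.

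Which members differ between male and female gonadotropes was asked with edgeR's quasi-likelihood test of males 2 to 4 against the 4 females, with Benjamini-Hochberg adjustment over all 20152 genes tested. None of the 82 members tested passed an adjusted p of 0.05 with edgeR, where 2.34% of all genes tested did (471 genes). At an unadjusted p below 0.05 there were 5 members, or 6.10%, of which 4 were lower and 1 higher in males, against 19.9% of all genes. DESeq2 called 2 members lower in males, *Cox6c* and *Ndufa7*, where it called 11.6% of all genes and 6.27% as lower in males. The same 2 were called by edgeR with library size alone, where 4.01% of all genes were called and 3.35% as lower in males. The other 4 members had too few counts for the filter. The smallest adjusted p of a member in the edgeR fit was 0.0818.

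The median log2 fold change of the tested members, male over female, was −0.07, and that of all genes tested was −0.03. By complex the median was −0.09 for complex I, 0.21 for complex II, 0.05 for complex III, −0.37 for complex IV and −0.10 for complex V. The fitted value was below 0 for 48 members and above 0 for 34. The 95% interval of the log2 fold change lay between −1 and 1 for 43 of the 82 members, 24 of 37 in complex I, 3 of 4 in complex II, 8 of 9 in complex III, 3 of 15 in complex IV and 5 of 17 in complex V. For the other members a difference of 2 times in at least 1 direction was inside the interval. Of the 16 members with a low library, 1 had an interval within these bounds.

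**Figure D4:**
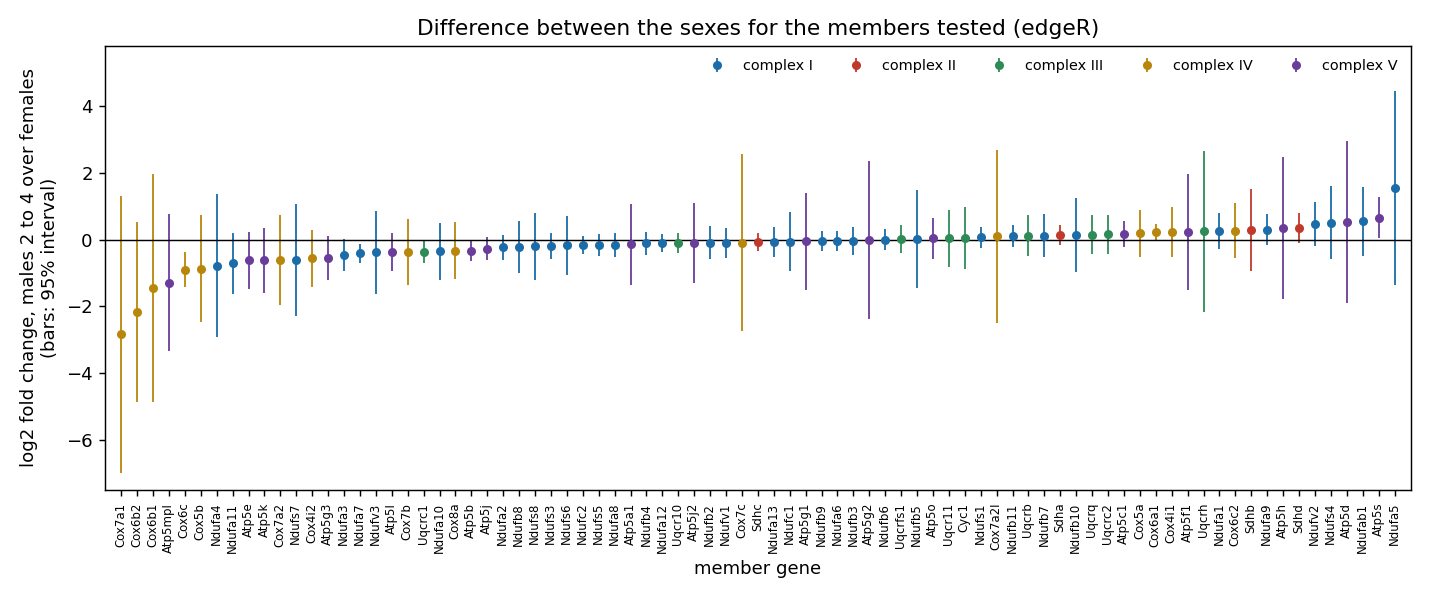
Log2 fold change of males 2 to 4 over females for 81 of the 82 members tested, ordered by value and coloured by complex, with 95% intervals from the edgeR fit. No member passed an adjusted p of 0.05, and the widest intervals belong to genes with few counts or with low values in 1 or several libraries, such as *Cox7a1*, *Cox6b1* and *Ndufa5*.

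The groups did not overlap for 10 of the 82 members, or 12.2%, against 22.5% of all genes tested (11.6% with the males above and 10.9% with the males below). In males 2 to 4, *Ndufab1* and *Cox6a1* were above each female, and *Ndufa3*, *Ndufa7*, *Uqcrc1*, *Cox6b2*, *Cox6c*, *Atp5b*, *Atp5g3* and *Atp5mpl* were below each female. *Cox6c* (chr15:35925886-35938246), an accessory subunit of complex IV, was at 32.7, 27.3, 35.2 and 23.2 CPM in females, at 12.9, 15.5 and 19.9 CPM in males 2 to 4 and at 28.9 CPM in male 1. Its log2 fold change was −0.91 ± 0.22 (SE, edgeR, adjusted p = 0.0818) and −0.90 in DESeq2 with an adjusted p of 0.00759, and over the alternatives run the adjusted p lay between 0.00759 and 0.511. The two-sided exact permutation test gave p = 0.0286, the smallest that 4 against 3 samples allow, for a gene described here because its groups did not overlap. *Cox6c2*, also counted as a member, had no protein-coding transcript length in the annotation used. It matched *Cox6c* with 97% identity over its whole length, so reads of the 2 could be exchanged in the counting. The log2 fold change of *Cox6c2* was 0.27 ± 0.35. The male library left out of the test lay inside the female range for *Cox6c*.

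*Ndufa7*, an accessory subunit of the matrix arm of complex I, was at 173, 174, 153 and 168 CPM in females, at 133, 119 and 131 CPM in males 2 to 4 and at 45.9 CPM in male 1. The log2 fold change without that library was −0.41 ± 0.12 (SE, edgeR, adjusted p = 0.123), and DESeq2 gave −0.40 with an adjusted p of 0.0124. *Atp5b*, the catalytic β subunit of ATP synthase, was at 344, 303, 321 and 338 CPM in females, 302, 255 and 236 CPM in males 2 to 4 and 215 CPM in male 1. The lowest female and the highest male value were 303 and 302 CPM, and the log2 fold change was −0.33 ± 0.13 (SE, edgeR, adjusted p = 0.221). *Uqcrc1*, a core protein of complex III, was at 57.7, 56.1, 69.5 and 66.7 CPM in females, 47.9, 45.9 and 54.0 CPM in males 2 to 4 and 41.3 CPM in male 1, with a log2 fold change of −0.37 ± 0.15 (SE, edgeR, adjusted p = 0.226).

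*Ndufa3*, a subunit of the membrane arm of complex I, was at 45.5, 41.5, 40.4 and 62.8 CPM in females, 30.7, 36.2 and 38.4 CPM in males 2 to 4 and 36.0 CPM in male 1. Its log2 fold change was −0.46 ± 0.21 (SE, edgeR, adjusted p = 0.27). *Atp5s* was the only member with an unadjusted p below 0.05 and a higher level in males, at 11, 15.5, 21.1 and 18.4 CPM in females and 31, 27.9 and 20.3 CPM in males 2 to 4, and at 15.9 CPM in male 1. The groups overlapped, and the log2 fold change was 0.65 ± 0.26 (SE, edgeR, adjusted p = 0.228). For *Cox6a1* the log2 fold change was 0.22 ± 0.11 (SE, edgeR, adjusted p = 0.338).

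Besides *Cox6c* and *Atp5s*, the fitted fold changes farthest from 0 came with wider errors. Among the lower values these were *Cox7a1* (−2.83 ± 1.76, SE), which rests on 84 counts, *Cox6b2* (−2.16 ± 1.15, 249 counts), *Cox6b1* (−1.44 ± 1.45) and *Atp5mpl*, a small subunit of ATP synthase (−1.29 ± 0.87). Among the higher ones were *Ndufa5* (1.55 ± 1.23), *Ndufab1*, the acyl carrier protein that also serves complex I (0.55 ± 0.44), *Atp5d* (0.53 ± 1.04) and *Ndufs4*, an accessory subunit of the matrix arm (0.51 ± 0.46). The adjusted p of these genes in the edgeR fit was 0.36 or more. Each of these values depended on single libraries. For *Ndufa5* the log2 fold change was 4.36 ± 0.29 without female 2 (SE, edgeR, adjusted p = 0.0111), in a fit that called 0.614% of all genes. It was −7.26 for *Cox7a1* and −3.69 for *Cox6b1* without male 2, −0.86 for *Cox6b1* without male 3, and −1.31 for *Cox6b2* without female 1. Males 3 and 4 had 0 counts of *Cox7a1*, so its −7.26 gives a direction and not a size. For *Atp5mpl* it was −0.74 without male 2 and −2.11 without male 3. It was 0.28 for *Ndufab1* without female 3, and for *Atp5d* it was 0.14 without female 2 and 0.90 without female 4. For *Ndufs4* it was 0.99 without female 2, 0.32 without female 1, 0.33 without female 3 and 0.29 without male 3. Apart from *Ndufa5*, none of these values was called.

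Of the core and structural subunits listed by role, those named in this paragraph did not pass the edgeR test, and DESeq2 called none of them. Values are given here as log2 fold change and SE. *Ndufv1*, which binds NADH, had −0.09 ± 0.19, *Ndufs1* 0.07 ± 0.14 and *Ndufs7* −0.60 ± 0.72. *Sdha* had 0.13 ± 0.13, *Sdhb* 0.29 ± 0.52, *Sdhc* −0.07 ± 0.11 and *Sdhd* 0.34 ± 0.19. *Uqcrfs1*, the Rieske iron-sulfur protein of complex III, was at 189, 275, 280 and 291 CPM in females, 250, 279 and 269 CPM in males 2 to 4 and 86.5 CPM in male 1, and had 0.02 ± 0.17. *Uqcrc2* had 0.15 ± 0.25 and the gene of cytochrome c1, *Cyc1*, 0.05 ± 0.39. *Cox4i1* was at 276, 305, 128 and 340 CPM in females, 327, 272 and 340 CPM in males 2 to 4 and 293 CPM in male 1, and had 0.23 ± 0.32. *Cox5a* had 0.18 ± 0.30, *Cox5b* −0.87 ± 0.68, *Atp5c1*, the γ subunit of the central stalk, 0.15 ± 0.17, and *Atp5o*, of the peripheral stalk, 0.03 ± 0.26. The adjusted p was 0.391 or more in the edgeR fit for each gene whose log2 fold change is given in this paragraph.

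The genes around the subunits were given from fixed lists of the pathway. Across all 20152 genes tested, 19.9% had an unadjusted p below 0.05, 1876 of them higher and 2133 lower in males. The counts at that limit are to be read against this share. Of 45 tested assembly factors, 0 passed the adjusted p in edgeR, and 5 had an unadjusted p below 0.05, all higher in males, with a median log2 fold change of 0.13 over the list. Of 14 citric acid cycle genes 0 passed, with 1 at an unadjusted p below 0.05 and a median of −0.05. Of 17 glycolysis genes 0 passed, with 3 at an unadjusted p below 0.05, all lower in males, and a median of −0.42. The 13 mitochondrially encoded protein genes had a median of 0.17, with 0 passing and 2 at an unadjusted p below 0.05. Cytosolic and mitochondrial ribosomal protein genes had medians of −0.16 (79 genes) and 0.03 (77 genes), with 0 passing and 11 and 9 at an unadjusted p below 0.05. Cytochrome c of somatic cells, *Cycs*, which carries electrons between complexes III and IV, had a log2 fold change of 0.34 ± 0.18 (SE, edgeR, adjusted p = 0.362).

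Among the 15 tested regulators of mitochondrial genes 0 passed and 4 had an unadjusted p below 0.05, all lower in males. Of all 20152 genes tested, 19.9% had such a p in either direction and 2133 were lower in males. *Ppargc1a* was at 15.7, 15.2, 24 and 17.3 CPM in females, 7.23, 10.3 and 9.36 CPM in males 2 to 4 and 24.9 CPM in male 1. The groups did not overlap, and the log2 fold change was −1.03 ± 0.23 (SE, edgeR, adjusted p = 0.0676). Its relative *Ppargc1b* had −0.74 ± 0.26 (adjusted p = 0.18). *Nrf1* was at 29.6, 25.3, 25.1 and 21.9 CPM in females and 22.8, 23.3 and 20.2 CPM in males 2 to 4, with −0.23 ± 0.16 (adjusted p = 0.495). *Gabpa*, the DNA-binding part of the ETS factor GABP, had 0.44 ± 0.26, *Tfam*, which packages and transcribes mitochondrial DNA, −0.17 ± 0.18, and the orphan receptors *Esrra* and *Esrrg* −0.58 ± 0.25 and 0.80 ± 0.45, all with an adjusted p of 0.259 or more in edgeR.

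Male 1 was compared with the other males as 1 library against 3, with no test. Its summed level was 7336 CPM, 89.3% of the mean of males 2 to 4. The sums were 91.2% for complex I, 73.5% for complex II, 83.6% for complex III, 105% for complex IV and 78.4% for complex V. With library size alone the summed level of all members was 98.2% of that mean. The complexes were then at 100%, 80.8%, 91.8%, 115% and 86.3% in the same order. The median log2 ratio of CPM + 1 over the tested members was −0.20, where all genes tested had −0.02, and it was 0.08 where library size without *Malat1* and *Neat1* served as the scale. All genes tested had 0.21 on that scale, so the members' median lay below that of all genes on both scales, and its sign follows the scale chosen. By complex the median was −0.23 for complex I, −0.41 for complex II, −0.45 for complex III, 0.34 for complex IV and −0.18 for complex V under TMM. Of the 82 members, 36 (43.9%) lay below the range of the other males and 14 (17.1%) above it, against 34.2% and 35.9% of all genes tested.

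The lowest ratios belonged to *Atp5f1* (−3.58), *Ndufa5* (−3.24), *Cox5a* (−2.56), *Ndufb5* (−2.32) and *Atp5h* (−2.31), of which *Atp5h* has 5 near-identical copies. The highest belonged to *Cox6b1* (1.45), *Atp5k* (1.19), *Cox6c* (0.81), *Cox6b2* (0.80) and *Atp5e* (0.76). For *Cox6b1* 2 of the other males had low values. Members without a low library were also lower, as *Uqcrfs1* at 86.5 CPM against 250 to 279 CPM, *Ndufa7* at 45.9 against 119 to 133 CPM and *Ndufv1* at 24 against 50.5 to 73.1 CPM. *Ndufs8*, an iron-sulfur subunit of complex I, was on the other side, at 82.1 CPM against 52.2 to 58.7 CPM. Of the 13 mitochondrially encoded protein genes 10 lay above the range of the other males and 2 below, with a median log2 ratio of 0.56. *Cycs* had a log2 ratio of −1.10 and the 45 assembly factors a median of −0.32, with 27 below the range. In the same library the gonadotrope markers had a median log2 ratio of −1.91 and the nuclear RNAs *Malat1* and *Neat1* one of 3.45, and their part in the members' values was not tested.

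**Figure D5:**
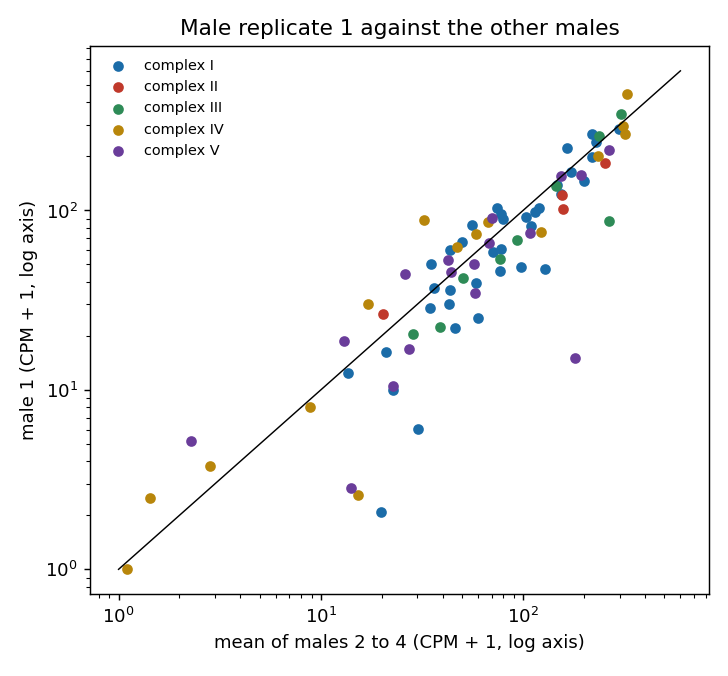
CPM + 1 of male 1 against the mean of males 2 to 4 for the 82 members tested, both on log axes, coloured by complex, with the line of equal values. More members lie below the line than above it, with *Atp5f1* (14.1 CPM) the farthest below it.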

How the data were processed

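RNA of sorted EGFP-positive pituitary cells was sequenced from 4 female and 4 male samples (paired-end, 150 bp). The authors deposited a table of unnormalized read counts per gene; per the study's methods and processing notes, adapters were trimmed with cutadapt 4.2, reads were aligned to mm10 (GRCm38) with STAR 2.5.4a and counted with featureCounts 1.6.1. Of the 55523 entries, 28933 carry a locus name of the MSTRG form, which StringTie writes and the methods do not mention. How reads of overlapping loci were assigned is not given in the sources used here, and 37 members overlap another gene.

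Male replicates 2 to 4 were compared with females 1 to 4 with edgeR 4.0.16 (filterByExpr, TMM, quasi-likelihood test, Benjamini-Hochberg adjustment over all genes tested, threshold 0.05, no replicate block) in R 4.3.3. DESeq2 1.42.0, library size alone, upper-quartile scaling, other count filters, all 8 samples, a replicate block and leaving out each replicate were the alternatives. Intervals are 95%. For single members, a two-sided exact permutation test on log2(CPM + 1) over 35 splits was used. Near-identical copies were searched with blastn 2.17.0. The fitting script was tested on simulated data with the same dispersion for all genes and no low values in single libraries, so that test does not cover such values. Positions are those of GENCODE genes on GRCm38 and promoters those of RefSeq (GRCm38.p6). Python 3.11.15 was used for the other steps. Named genes were the core subunits, the subunits with paralogues, the 5 largest fold changes in each direction, the 5 highest and 5 lowest ratios of male replicate 1, and regulators. Other even members, members with a low library and members whose groups did not overlap were named after their values were seen. The members and lists were chosen with earlier results of these data known. The limit for low libraries, and the sum over members without one, were chosen after seeing the data. The values of 1 member are not reported here singly, and it is left out of the plots that label genes.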

Additional observations from a re-analysis of the deposited data

Results flagged for a closer look

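Among the members whose values are printed for each library, 9 of 62 groups of 4 samples held a sample far from the other 3, by a Dixon ratio above its 95% critical value. Chance alone flags about 1 in 20 groups, but some of these members were named because of their values, so the count cannot be set against that share. In females, *Cox6b1* was at 16.0 CPM in female 1 against 102 to 113 CPM, and *Cox7a2l* was at 15.9 CPM in female 3 against 275 to 285 CPM. *Ndufa5* was at 22.4 CPM in female 2 against 0.685 to 1.22 CPM. *Sdhb* was at 28.7 CPM in female 3 against 9.78 to 12.4 CPM, and *Uqcrfs1* at 189 CPM in female 1 against 275 to 291 CPM. In males, 3 of the 4 such samples were male 1, with *Ndufa5* at 1.10 CPM against 17.9 to 20.4 CPM, *Ndufa7* at 45.9 CPM against 119 to 133 CPM and *Uqcrfs1* at 86.5 CPM against 250 to 279 CPM. The remaining one was male 4, with *Atp5g3* at 39.2 CPM against 81.7 to 90.1 CPM.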

How the results depend on the processing

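The limits of these values are the 3 and 4 samples per sex, the low values in single libraries, and a difference in scaling factors between the sexes. The count of all genes past the threshold was 471 and became 2329 with DESeq2, 808 with library size alone, 177 without a filter beyond 1 count, 67 with all 8 samples and between 88 and 171 when 1 replicate was left out. The number of members called was 0 and became 2 with DESeq2 (2 lower in males) and 2 with library size alone (2 lower in males, *Cox6c* and *Ndufa7*, where 4.01% of all genes were called), and lay between 0 and 1 when 1 replicate was left out, the 1 being *Ndufa5*, higher in males, without female replicate 2. The members' median log2 fold change was −0.07 and became −0.28 with library size alone. It lay between −0.10 and 0.0057 when 1 replicate was left out, with −0.018 without female replicate 3 and 0.0057 without female replicate 4. The members whose groups did not overlap numbered 10, 20 with library size alone, 6 with all 8 samples and between 12 and 20 when 1 replicate was left out, with 17 without female replicate 1, 16 without female replicate 2 and 20 without male replicate 4. The shares of all genes moved in the same direction as these counts, from 22.5% to 25.3%, 7.61% and between 27.5% and 34.4% in the same order, and the members' share was below that of all genes in each of these settings. The summed ratio was 0.972 and became 0.828 with library size alone and 0.978 over the 59 members without a low library, a sum added after seeing the data. The median log2 ratio of male replicate 1 was −0.20 and became −0.080 with library size alone and 0.077 without *Malat1* and *Neat1*. Of 738 results and alternatives, 641 kept direction and call, 59 moved, 5 became called and 33 changed sign, the last for 13 named members that were not called under any of these settings. With library size alone the log2 fold change became −0.054 for *Atp5c1*, −0.19 for *Atp5o*, −0.036 for *Cox5a*, −0.17 for *Cyc1*, −0.14 for *Ndufs1*, −0.082 for *Sdha*, −0.053 for *Uqcrc2* and −0.19 for *Uqcrfs1*. With all 8 samples it became 0.17 for *Atp5g2*, −0.16 for *Cox5a*, −0.039 for *Cyc1* and −0.23 for *Uqcrfs1*. Leaving out 1 replicate gave −0.34 to 0.33 for *Atp5g1*, −0.45 to 0.53 for *Atp5g2*, −0.11 to 0.19 for *Atp5o*, −0.0013 to 0.36 for *Cox5a*, −0.67 to 0.016 for *Cox8a*, −0.49 to 0.37 for *Cyc1*, −0.27 to 0.029 for *Ndufv1*, −0.38 to 0.78 for *Sdhb*, −0.14 to 0.30 for *Uqcrc2* and −0.089 to 0.099 for *Uqcrfs1*. The cause of these changes was not tested. With the replicate number as a block, 0 genes were called and the members' median was −0.13, and *Uqcrfs1* became −0.11. The numbers give no pairing in the design, and deviations of same-numbered samples correlated at −0.034, −0.007 and 0.003.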
